A study of Mus musculus with 32 samples.

Results

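Reduced oxygen was compared with normal oxygen in 2 lines of mouse smooth muscle cells, both kept with the oxidized phospholipid POVPC, and the comparison asked for which genes the response differed between Oct4 -/- cells (KO) and wild type cells (WT). The members were chosen by their labels: the 12 POVPC libraries of the culture experiment, of 32 RNA libraries in the series, which fall into 4 groups of 3. These groups are WT in normoxia, WT in hypoxia at 1% O2, KO in normoxia and KO in hypoxia at 1% O2, all on a C57BL/6 background. Each genotype was represented by 1 primary aortic cell line, so the genotype and the line cannot be told apart. The labels call the libraries of a group triplicates and do not say whether they came from separate cultures, so p-values measure the spread between triplicates, which may be technical. The labels name no Cre driver for the culture lines and give no dose of POVPC and no time in hypoxia. The quantity reported for each gene is the interaction, which is the KO change in hypoxia minus the WT change in hypoxia on the log2 scale. A positive interaction means that the KO change lay above the WT change, which holds both for a larger rise and for a smaller fall. The other culture libraries, 12 with vehicle in place of POVPC, served for 1 further comparison, and the 8 lesion libraries were not used.

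Smooth muscle cells form the contractile layer of arteries, and in atherosclerotic lesions they meet low oxygen and oxidized lipids together. When oxygen falls, the prolyl hydroxylases that mark the HIF alpha subunits for destruction by VHL lose activity, the subunits accumulate, and with ARNT they bind a short core sequence near genes of glucose uptake, glycolysis, angiogenesis and oxygen sensing. POVPC arises from oxidation of phosphatidylcholine and is used on cultured vascular cells as a model of the lipids in lesions. Oct4, encoded by Pou5f1, is a transcription factor of pluripotent cells.

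Pou5f1 itself was counted in 1 of the 12 POVPC libraries, a KO normoxia library with 2 counts, and in none of the other 11. A floor of 3 counts per library corresponds to 0.0954 to 0.410 CPM (counts scaled to a common library total), so the level lay under what this depth can measure and could not check the genotype labels. Total counts ran from 8063121 to 30231799 per library. WT hypoxia libraries 1 and 2 were the shallowest, at 13663755 and 8063121 counts, and had 5.79 and 9.24 multimapping alignments per assigned read, against at most 2.75 in the other 10. The ribosomal RNA gene Rn45s held 1.71 to 11.1% of counts. Smooth muscle markers were present: the summed CPM of 7 markers was 160 to 196 in WT normoxia, 37.1 to 51.7 in WT hypoxia, 155 to 166 in KO normoxia and 44.4 to 67.2 in KO hypoxia, most of it from Acta2 and Smtn, while the defining genes Myh11 and Cnn1 reached at most 2.25 and 0.942 CPM and Myocd 0.430 CPM. Of 6 endothelial markers, which summed to 1.87 to 4.92 CPM per library, Cdh5 and Tie1 were at 0 in 11 of 12 libraries each, Pecam1 and Vwf were counted in all 12, and Kdr reached 4.24 CPM. The summed levels of 7 adventitial fibroblast markers, most of it from Dcn, were 4167 to 4519, 229 to 320, 3597 to 3867 and 688 to 765 CPM in the same order of groups. Of these markers Pi16, Dpt, Cd34 and Lum were higher in KO normoxia than in WT normoxia, and Pdgfra, Ly6a and Dcn lower. The summed levels of 4 epithelial markers were 1.88 to 2.55, 1.09 to 2.42, 7.79 to 9.69 and 11.6 to 13.9 CPM in the same order of groups. Fewer cells of a type and less RNA per cell cannot be told apart in such bulk samples.

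Hypoxia changed most of the transcriptome in both lines, and the lines differed in the size or direction of the change for a minority of genes. Of 14496 genes tested, 4354 (30%) had an interaction at a false discovery rate (FDR) under 0.05 by edgeR's quasi-likelihood test, 2273 of them (15.7%) positive and 2081 (14.4%) negative. The positive share of the called genes was 52.2% and turned to a minority under other settings: 45.3% with RLE scaling, 45.1% with DESeq2, 46.9% without Rn45s and Rpph1 and 45.4% without WT hypoxia libraries 1 and 2. An interaction of at least 2-fold was found for 699 of the positive and 779 of the negative genes. The median of the interaction over all genes tested was 0.04 and the median of its size was 0.37, with a median standard error of 0.18 (log2). Within one line, 9586 genes (66.1%) were called in WT, 31.8% higher in hypoxia and 34.3% lower, and 9924 (68.5%) in KO, 34.5% higher and 33.9% lower. The 2 responses ran mostly the same way: across genes, which are not independent replicates, the WT and KO changes had a Spearman correlation of 0.729, and 7123 of the 7593 genes called in both lines (93.8%) had the same sign. On the first 3 principal components of the 12 libraries, with 46.1%, 35.5% and 7.16% of the variance, the first separated hypoxia from normoxia and the second separated the lines. The third held WT normoxia and KO hypoxia on one side and the other groups on the other. Without WT hypoxia libraries 1 and 2, which leaves 1 library in that group, 3367 genes were called, 3043 of them among the 4354. Reads were counted without strand, so a gene that overlaps another is uncertain. Genes with near-identical copies, such as Ly6a and Ly6c1 or the Ldha family, are uncertain too, because multimapping alignments were not assigned.

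**Figure D1:**
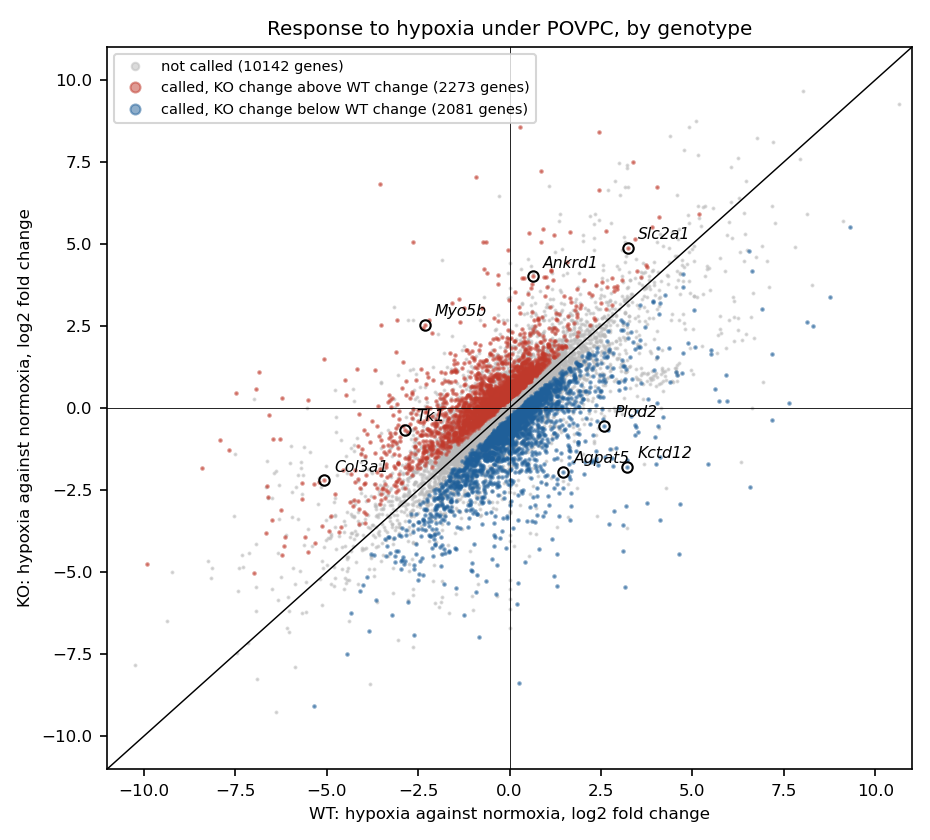
Change in hypoxia under POVPC in WT (horizontal axis) and in KO (vertical axis), log2 fold change, 1 point a gene; the diagonal marks equal change, 1 gene lies beyond the axes, and circles mark genes described in the text. The 2273 red genes lie above the diagonal and the 2081 blue genes below it, and the cloud as a whole follows the diagonal.

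The called genes fell into classes by what each line did. The largest class, 1164 genes, changed in the same direction in both lines and by more in KO, and 855 genes did so by more in WT. In 1008 genes only the KO change passed its own test and in 825 only the WT change. In 470 genes both changes passed and had opposite signs, with 246 that rose in WT and fell in KO and 224 that did the reverse. A last 32 genes passed the interaction test with neither change called, among them Ddx5, an RNA helicase, with an interaction of 0.31 ± 0.10 (± SE), a call that was lost when any of 6 single libraries was left out. In the class of opposite signs the levels of the 2 lines tended to lie closer in hypoxia: the gap between KO and WT was smaller in hypoxia than in normoxia for 298 of the 470 genes (63.4%), against 50.6% of all genes tested and 52.5% of the called genes. This count rests on the same libraries as the interaction and is given as a description.

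The 5 genes of opposite sign with the smallest p all rose in WT and fell in KO. Plod2, a lysyl hydroxylase that prepares collagen for cross-linking and a known HIF target, stood at 70.6, 69.3 and 72.1 CPM in WT normoxia and 427, 379 and 459.96 CPM in WT hypoxia. In KO it stood at 739, 701 and 666 CPM in normoxia and 499.8, 494 and 457 CPM in hypoxia. The WT libraries rose from the lowest level to the lower edge of the KO hypoxia range, the KO libraries started highest and fell, and normoxia and hypoxia did not overlap in either line. The interaction was -3.12 ± 0.10 (± SE; edgeR FDR 5.02e-19). Agpat5, an acyltransferase of phospholipid synthesis, went from 52.03, 46.4 and 46.4 to 137, 126 and 136 CPM in WT. In KO it went from 1316, 1368 and 1396 to 342, 358 and 361 CPM, so the line that was far higher in normoxia fell and the other rose, with an interaction of -3.40 ± 0.10 (edgeR FDR 1.62e-20). Tiparp, an ADP-ribosyltransferase induced by the aryl hydrocarbon receptor, went from 34.1, 33.9 and 29.8 to 81.6, 79.4 and 79.7 CPM in WT and from 213, 209 and 217 to 73.8, 77.7 and 71.6 CPM in KO. Its hypoxia levels were nearly equal in the lines, and its interaction was -2.82 ± 0.10.

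Igfbp3, which binds insulin-like growth factors in the extracellular space, went from 127, 136 and 152 to 458, 402 and 534 CPM in WT. It went the other way in KO, from 564, 545 and 523 to 179, 162 and 179 CPM, so that the order of the lines turned over, with an interaction of -3.40 ± 0.13 (edgeR FDR 5.52e-18). Kctd12, an auxiliary subunit of GABA-B receptors, went from 1.104, 1.49 and 1.39 to 11.2, 14.6 and 12.04 CPM in WT and from 43.1, 40.9 and 40.1 to 12.5, 12.1 and 11.4 CPM in KO. The hypoxia libraries of the lines overlapped, between 11.2 and 14.6 CPM, while in normoxia every KO library was far above every WT library. The interaction was -5.01 ± 0.20 (edgeR FDR 1.29e-17).

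Some genes answered in 1 line alone. Ckb, the brain isoform of creatine kinase, stood at 11.9, 10.3 and 12.3 CPM in WT normoxia and 13.02, 9.84 and 11.3 CPM in WT hypoxia, without a call. In KO it fell from 73.2, 83.2 and 73.02 to 9.43, 10.6 and 9.73 CPM, down to the WT level, with an interaction of -2.96 ± 0.16 (edgeR FDR 2.46e-14). Gja1 (connexin 43), Sepp1 (selenoprotein P, a selenium carrier) and Nfkbia (the inhibitor of NF-kB) fell in KO with interactions of -1.96, -1.67 and -1.73, and Lbh, a transcriptional regulator, rose in KO with an interaction of 1.91. In the reverse case, Elovl6, a fatty acid elongase, rose in WT from 36.7, 31.7 and 28.4 to 259, 233 and 282 CPM. Its KO levels were 105, 93.2 and 91.2 CPM in normoxia and 97, 85.6 and 106 CPM in hypoxia, a range that overlapped, and the interaction was -3.005 ± 0.14 (edgeR FDR 3.2e-16). Prrx1, a homeobox factor of mesenchymal cells, fell in WT from 827, 837 and 805 to 133, 126 and 123 CPM, while KO held 575, 546 and 564 and 533, 500.4 and 493 CPM, with an interaction of 2.55 ± 0.10. Mgp (matrix Gla protein, an inhibitor of vascular calcification) and the WNT receptor Fzd8 also fell in WT, with interactions of 2.61 and 2.17, and Tsc22d3, a glucocorticoid-induced leucine zipper protein, rose in WT with an interaction of -2.29.

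Other genes moved the same way in both lines by unequal amounts. Ankrd1, a nuclear and sarcomeric ankyrin repeat protein, rose in WT from 27.3, 24.7 and 25.99 to 36.3, 41.4 and 43.03 CPM. In KO it rose from 6.74, 7.27 and 7.75 to 127, 100.3 and 124 CPM, from the lowest level of the 4 groups to the highest, with an interaction of 3.38 ± 0.13 (edgeR FDR 1.75e-17). Lhfpl2, Prex2, Ano1 and Ghr fell in both lines and by more in KO, with interactions of -2.33, -1.82, -1.63 and -1.62. Ano1 encodes a calcium-activated chloride channel and Ghr the growth hormone receptor. Among genes that moved more in WT, Angptl2, a secreted angiopoietin-like protein, fell from 247, 259 and 274 to 15.8, 13.7 and 17.1 CPM in WT and from 128, 136 and 125 to 54.6, 59.7 and 49.3 CPM in KO. Trib3, a pseudokinase of the ATF4 stress response, rose from 3.65, 2.32 and 2.57 to 87.6, 73.5 and 90.8 CPM in WT and from 12.5, 13.8 and 11.7 to 53.2, 46.03 and 50.8 CPM in KO. The interactions were 2.79 ± 0.12 and -2.91 ± 0.17, and those of Clca2, Figf (VEGF-D) and the cytoskeletal adaptor Add3 were 3.09, 2.07 and -1.55.

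**Figure D2:**
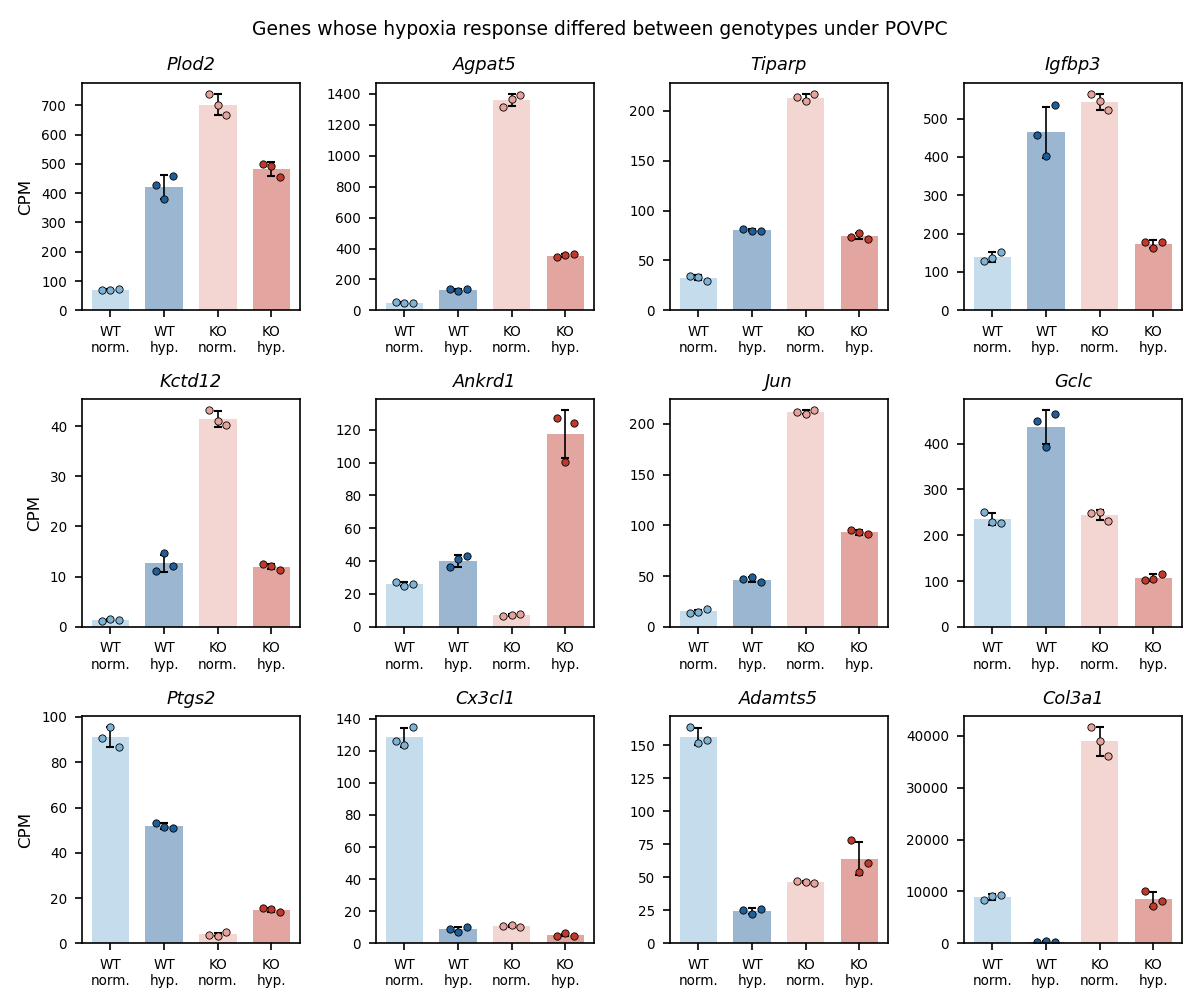
CPM of 12 genes in the 12 POVPC libraries; bars are group means, error bars the SD (n = 3) and points single libraries, with separate linear axes from 0. Plod2, Agpat5, Tiparp, Igfbp3, Kctd12, Jun and Gclc rise from normoxia to hypoxia in WT and fall in KO, and Ankrd1 rises by more in KO than in WT.

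The largest interactions by size belonged to genes of low level, many with a group at or near 0 counts. Among the 15 largest positive ones, Myo5b, a myosin motor of membrane recycling, was measured in every group, at 16.01, 16.2 and 17.8 and 2.88, 3.01 and 3.83 CPM in WT and 2.13, 1.75 and 1.07 and 11.3, 8.85 and 8.84 CPM in KO. It fell in WT and rose in KO, with an interaction of 4.86 ± 0.30. Lumican (Lum), a matrix proteoglycan, had no count in WT hypoxia. Against a floor of 3 counts over the 3 libraries Lum was at least 303-fold lower than in WT normoxia, where it stood at 18.6, 21.3 and 19.3 CPM, and the KO fall was 92.2-fold. Fxyd1, a regulator of the sodium pump, was at least 80.6-fold lower in WT hypoxia and 27.1-fold lower in KO hypoxia. Other positive genes of this rank were Prelp, Epyc, Mme, Cyp17a1, Kcnj15, Slc8a2, Mcpt2, Rnase10, Fam46c, Fam131a and Fam132a. The Cyp17a1 call was lost in 16 of 25 alternatives, 9 of them the omission of 1 library, the Kcnj15 call without KO hypoxia library 3 and the Fxyd1 call without WT hypoxia library 3 or without WT hypoxia libraries 1 and 2.

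Among the 15 largest negative ones, the collagen receptor subunit Itga2 rose in WT from 1.402, 1.74 and 1.58 to 5.07, 4.51 and 5.24 CPM and fell in KO from 10.2, 9.66 and 8.36 to 0.789, 0.994 and 0.889 CPM, with an interaction of -5.06 ± 0.26. The retinol dehydrogenase family member Dhrs9 went from 1.53, 0.978 and 1.49 to 2.72, 1.91 and 2.19 CPM in WT and from 40.6, 41.9 and 36.9 to 1.99, 2.44 and 1.69 CPM in KO, with an interaction of -5.09 ± 0.28. For both genes KO normoxia was the highest group and KO hypoxia overlapped or lay below WT. The sperm surface gene Adam18 and the potassium channel gene Kcnf1 had no count in WT normoxia. Against the same floor WT hypoxia was higher by at least 41.0-fold for Adam18, where KO rose 5.70-fold. For Kcnf1 the values were at least 34.7-fold in WT and 6.12-fold in KO. Cd74 held its place through 1 library: WT hypoxia library 2 had 20.5 CPM and the other 2 had 0.378 and 0.313, and without that library its interaction went from -6.67 to -2.57. Others were Car12, a carbonic anhydrase induced by HIF, with Kctd12, Kif5c, Col24a1, C1ql1, Kng1, Nppc, Osr2 and Zbtb8b. Leaving out 1 library lost the calls of Nppc (WT hypoxia 1 or 2), Kng1 (KO normoxia 1) and Zbtb8b (WT hypoxia 1), and leaving out WT hypoxia libraries 1 and 2 together lost those of Cd74, Col24a1, Nppc and Zbtb8b.

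The HIF pathway responded in both lines, and the differences between them were spread over both directions. Of 11 tested genes for HIF subunits and oxygen-sensing enzymes, 1 had a positive and 2 a negative interaction. For this and every later list, the shares over all genes tested were 15.7% positive and 14.4% negative. Hif1a stood at 429, 455 and 489.8 CPM in WT normoxia and 280.4, 267 and 318 CPM in WT hypoxia, and at 529, 555 and 507 and 279, 304 and 260.1 CPM in KO. It fell in both lines, and its interaction of -0.25 ± 0.10 was not called (edgeR FDR 0.0727), though it was with DESeq2, at -0.30. The prolyl hydroxylase genes Egln1 and Egln3, themselves HIF targets, rose in both lines, with interactions of 0.34 ± 0.12 and -0.65 ± 0.16. The Egln1 call was lost in 15 of 25 alternatives, among them DESeq2, RLE scaling and the omission of single libraries. Vhl, the ubiquitin ligase subunit that binds hydroxylated HIF, rose in both and by more in WT, with -0.66 ± 0.13.

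Of 23 genes for glycolysis and glucose transport, 20 rose in each line, with a median change of 2.81 in WT and 3.15 in KO, beside medians of -0.02 and 0.03 over all genes tested. Their interaction was positive in 7 and negative in 2, with a median of 0.20 against 0.04 over all genes. Slc2a1, the glucose transporter GLUT1, had the smallest p. Its 250 bases before the start site (RefSeq, GRCm38.p6, chr4:119108495-119108744, plus strand) are printed because they hold the core ACGTG that HIF binds, here in capitals, 36 bases before the start.
Slc2a1: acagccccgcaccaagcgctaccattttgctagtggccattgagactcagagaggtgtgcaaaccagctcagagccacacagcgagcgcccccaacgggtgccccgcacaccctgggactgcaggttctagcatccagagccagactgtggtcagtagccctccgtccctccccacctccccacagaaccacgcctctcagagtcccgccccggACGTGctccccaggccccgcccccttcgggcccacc
Slc2a1 rose in WT from 30.1, 29.99 and 29.9 to 279, 243 and 318 CPM. In KO it rose from 10.7, 11.2 and 10.7 to 329, 345 and 288 CPM. KO libraries started below WT and ended higher on average, with ranges that overlapped in hypoxia, and the interaction was 1.66 ± 0.12 (edgeR FDR 1.07e-11). Lactate dehydrogenase Ldha rose from 399, 445 and 463 to 3596, 3452 and 4038 CPM in WT and from 357, 403 and 388 to 5671, 5946 and 5715 CPM in KO, an interaction of 0.83 ± 0.12. The pyruvate kinase gene, named Pkm2 in the table, and the lactate exporter Slc16a3 had interactions of 0.72 and 1.18, while neuronal enolase Eno2 fell in both lines and by more in KO, with -0.76. Without WT hypoxia libraries 1 and 2, 4 genes of the list were positive and 2 negative, with a median of 0.06.

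The other HIF targets divided: of 29, 10 had a positive and 8 a negative interaction (median 0.12). Bhlhe40, a repressor of the circadian clock genes, rose from 63.8, 62.1 and 55.5 to 227, 197 and 261 CPM in WT and from 29.2, 27.8 and 23.3 to 236, 219.7 and 210.04 CPM in KO, with an interaction of 1.13 ± 0.16. The endoplasmic reticulum oxidase Ero1l and Narf also rose by more in KO, with 0.85 and 0.80. On the negative side Stc2, a secreted stanniocalcin, rose from 6.37, 4.6 and 7.33 to 39.7, 32.7 and 44.2 CPM in WT and fell from 30.8, 35.6 and 26.3 to 20.7, 18.3 and 18.8 CPM in KO. Its interaction was -3.38 ± 0.20, and Stc2 and Plod2 were among the 5 targets that fell in KO, where 22 rose. Without WT hypoxia libraries 1 and 2 the list held 6 positive and 8 negative genes. The core ACGTG, searched on both strands in the 250 bases before the start, was present for 10 of 21 glycolysis genes (47.6%) and 13 of 20 other targets (65.0%) with a promoter in the table, against 24.4% of all tested genes with one.

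DNA replication genes differed between the lines in one direction. Of 28, 19 had a positive interaction and 0 a negative one by edgeR, with a median of 0.67; the negative count was also 0 at an unadjusted p under 0.05 and with DESeq2. In WT 18 of them fell and 2 rose (median -0.58), while in KO 12 rose and 8 fell (median 0.12). Of 27 genes of mitosis and the G2/M phase, 26 fell in WT and 25 in KO, with medians of -2.20 and -2.29, and their interaction was positive in 3 and negative in 2 (median -0.09). The negative count ran from 0 without WT normoxia library 2 to 5 without WT normoxia library 1, and was 6 with DESeq2. Over all genes tested 15.7% were positive and 14.4% negative. Leaving out WT hypoxia libraries 1 and 2 gave 15 positive and 0 negative replication genes with the same median of 0.67.

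Genes of this kind are controlled by E2F factors, and the promoters of 3 genes of the replicative helicase are shown because they hold matches to the E2F motif. The words TTTGGCGC, TTTCCCGC, TTTGCCGC and TTTCGCGC were searched on both strands, and matches, which can overlap, are in capitals in the 250 bases before the start (RefSeq, GRCm38.p6). The Mcm5 window is chr8:75109259-75109508 on the plus strand, the Mcm6 window chr1:128359706-128359955 on the minus strand and the Mcm7 window chr5:138171884-138172133 on the minus strand. The matches start 153 to 149, 110 to 47 and 165 bases before the start.
Mcm5: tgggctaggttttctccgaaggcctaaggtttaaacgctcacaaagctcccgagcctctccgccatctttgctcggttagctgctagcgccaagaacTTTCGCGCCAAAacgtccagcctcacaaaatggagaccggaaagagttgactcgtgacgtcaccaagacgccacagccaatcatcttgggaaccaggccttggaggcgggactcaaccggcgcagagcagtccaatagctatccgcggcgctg
Mcm6: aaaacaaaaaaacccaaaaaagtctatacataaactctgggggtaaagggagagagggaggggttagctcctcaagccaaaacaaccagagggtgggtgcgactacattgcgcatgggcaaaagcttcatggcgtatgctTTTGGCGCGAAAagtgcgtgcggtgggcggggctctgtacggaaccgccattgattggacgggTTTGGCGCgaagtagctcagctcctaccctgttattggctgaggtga
Mcm7: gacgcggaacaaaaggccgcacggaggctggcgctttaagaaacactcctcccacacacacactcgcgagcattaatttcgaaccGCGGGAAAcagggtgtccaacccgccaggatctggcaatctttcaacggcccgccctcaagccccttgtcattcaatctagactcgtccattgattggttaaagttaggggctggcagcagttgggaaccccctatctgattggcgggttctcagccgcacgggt
At least 1 of the words was present for 7 of 22 replication genes (31.8%), for 1 of 21 mitosis genes (4.8%) and for 3.8% of all tested genes. Each share counts only genes with a promoter in the table. Mcm5 fell in WT from 31.8, 23.7 and 27.6 to 16.4, 13.1 and 14.9 CPM. In KO it rose from 10.7, 11.7 and 12.1 to 17.98, 20.3 and 15.5 CPM. WT was highest in normoxia and KO lowest, the hypoxia ranges overlapped, and the interaction was 1.53 ± 0.17 (edgeR FDR 2.58e-08). Mcm6 went from 120.4, 108 and 115 to 98.9, 89.2 and 104 CPM in WT and from 65.2, 65.2 and 58.5 to 97.5, 101 and 88.05 CPM in KO, an interaction of 0.83 ± 0.11. Mcm7, shown for its promoter and outside the naming rule, rose in both lines and by more in KO, with 0.68 ± 0.10. Mcm4 rose in KO alone, with 0.84. These 4 helicase subunits were picked by p-value or call, in a list with 0 negative calls, so their shared sign followed from the choice.

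Rrm1 and Tk1 of the same list supply nucleotides. Rrm1, the large subunit of ribonucleotide reductase, fell in WT from 92.5, 86.2 and 87.5 to 52.2, 43.3 and 48.3 CPM and rose in KO from 61.8, 62.1 and 64.6 to 75.2, 80.3 and 76.2 CPM, with an interaction of 1.18 ± 0.10 (edgeR FDR 1.83e-10). Thymidine kinase Tk1 fell in WT from 29.6, 24.8 and 27.3 to 3.18, 4.098 and 4.06 CPM and in KO from 6.65, 7.41 and 7.03 to 4.24, 4.07 and 5.02 CPM. KO started at the lower level, both lines ended between 3.18 and 5.02 CPM, and the interaction was 2.18 ± 0.19. Of the mitosis genes, the proliferation marker Mki67 fell from 41.6, 30.2 and 34.9 to 3.25, 7.104 and 3.79 CPM in WT and from 18.8, 15.9 and 15.01 to 0.997, 1.04 and 1.38 CPM in KO. Mki67 and the spindle protein Prc1 had negative interactions of -0.84 and -0.75, and Foxm1, Kif4 and the checkpoint gene Mad2l1 positive ones of 1.47, 1.23 and 0.92. The calls of Mki67, Prc1 and Kif4 were lost when single libraries were left out. Cyclin-dependent kinase inhibitors and p53 targets had 10 positive and 5 negative interactions of 21. The apoptosis inducer Pmaip1, the stress gene Gadd45b and Phlda3 rose by more in KO, with 1.26, 1.89 and 1.05, while Cdkn1b (p27) fell by more in KO, with -0.81.

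**Figure D3:**
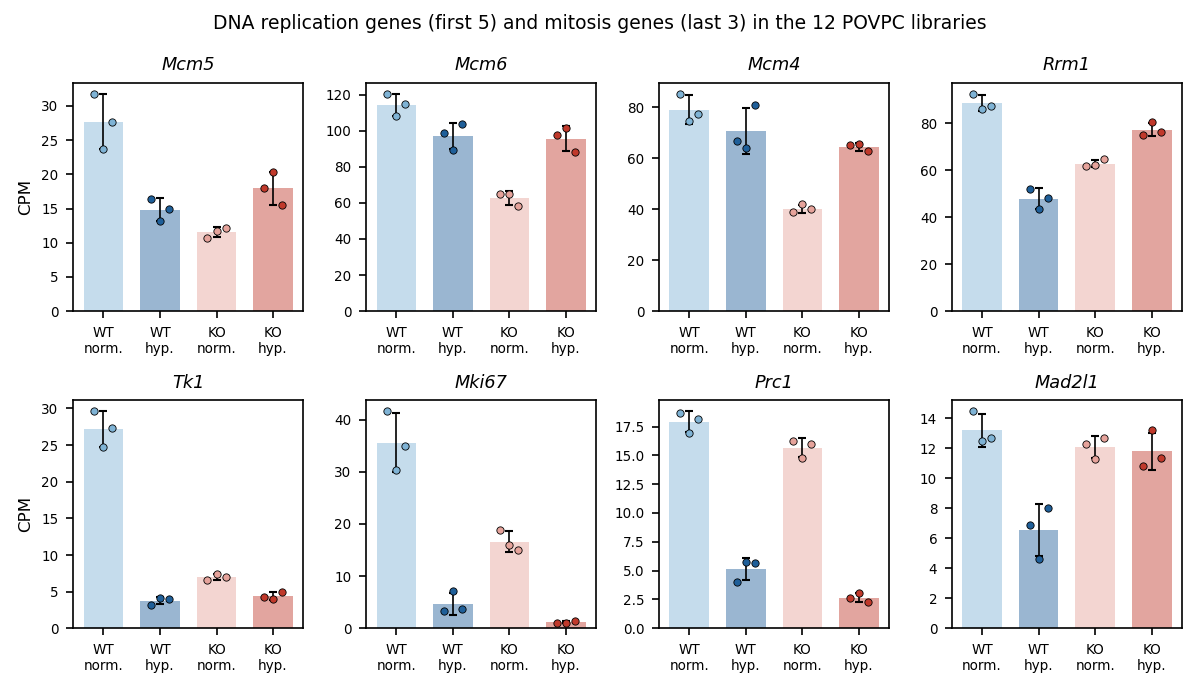
CPM of 5 DNA replication genes and 3 mitosis genes in the 12 POVPC libraries; bars are group means, error bars the SD (n = 3) and points single libraries, with separate linear axes from 0. Mcm5, Mcm6 and Rrm1 are lower in WT hypoxia than in WT normoxia and higher in KO hypoxia than in KO normoxia, and Mki67 and Prc1 are lower in hypoxia in both lines.

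Genes that supply amino acids and charge tRNAs rose in both lines and by less in KO. Of 21 genes for serine synthesis, the one-carbon cycle and aminoacyl tRNA synthetases, 20 rose in WT (median 1.30) and 18 in KO (median 0.80), and the interaction was negative in 14 and positive in 2 (median -0.42). Without WT hypoxia libraries 1 and 2 these counts were again 14 and 2. Many of these genes are driven by ATF4 through a short element, and the promoters of 2 synthetases are printed because they hold its core TGATGNAA (searched on both strands, match in capitals; RefSeq, GRCm38.p6). The Gars window is chr6:55037751-55038000 on the plus strand and the Tars window chr15:11399659-11399908 on the minus strand, with matches 30 and 15 bases before the start.
Gars: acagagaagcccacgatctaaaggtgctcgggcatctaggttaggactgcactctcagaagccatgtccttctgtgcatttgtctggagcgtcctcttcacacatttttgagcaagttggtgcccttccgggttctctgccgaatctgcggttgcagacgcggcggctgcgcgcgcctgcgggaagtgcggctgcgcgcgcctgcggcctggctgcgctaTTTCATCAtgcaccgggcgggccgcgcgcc
Tars: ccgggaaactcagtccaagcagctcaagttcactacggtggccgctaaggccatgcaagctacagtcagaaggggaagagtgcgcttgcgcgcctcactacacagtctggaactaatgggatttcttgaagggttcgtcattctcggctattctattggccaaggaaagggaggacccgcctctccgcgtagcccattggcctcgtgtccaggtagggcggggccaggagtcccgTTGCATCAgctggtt
The element was present for 3 of 15 list members with a promoter and for 2.5% of all tested genes with one. Gars, the glycyl tRNA synthetase, rose from 93.1, 93.4 and 93.9 to 297, 277 and 308 CPM in WT and from 145, 143 and 137 to 337, 327 and 335 CPM in KO, and its interaction was -0.42 ± 0.08. Tars, the threonyl tRNA synthetase, had an interaction of -0.44 ± 0.10; both are outside the naming rule and shown for their promoters. Psat1, of serine synthesis, rose from 88.2, 84.8 and 88.5 to 324, 291 and 331 CPM in WT and from 148, 149.5 and 152 to 255, 257 and 274 CPM in KO. Its interaction was -1.05 ± 0.11 (edgeR FDR 1.32e-08), and the mitochondrial folate enzymes Aldh1l2 and Mthfd2 had -1.13 and -1.09. Mthfd1l, also a mitochondrial folate enzyme, went against the list with a rise that was larger in KO, 0.71. Of 22 genes of the unfolded protein response and ATF4 stress, 5 were positive and 7 negative. The positive Nupr1 (1.18) stood beside the negative Trib3, Atf5 (-1.77), Ppp1r15a (-1.04) and Xbp1 (-0.98).

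NRF2 targets, which defend against oxidants, were mostly negative: 11 of 20 had a negative and 1 a positive interaction (median -0.35), with 13 that rose in WT and 12 in KO. Gclc, the catalytic subunit for glutathione synthesis, rose in WT from 251, 229 and 227 to 449, 394 and 464 CPM. In KO it fell from 249, 251 and 231 to 102, 104 and 116 CPM from an overlapping starting level, with an interaction of -2.08 ± 0.12 (edgeR FDR 4.98e-14). The cystine importer Slc7a11 and malic enzyme Me1 rose in both lines and by less in KO, with -1.05 and -1.12, and the glutathione transferase Gsta4 fell in both and by more in KO, with -0.997. Osgin1 was the positive one, with 2.16. The number of negative genes was 13 without WT hypoxia libraries 1 and 2, but 7 without WT hypoxia library 3.

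Matrix genes fell in both lines by unequal amounts. Of 27 genes for collagens and elastic fibres, 24 fell in each line (medians -2.61 and -2.75), and the interaction was negative in 12 and positive in 6 (median -0.56). Col1a2, a chain of type I collagen, fell from 5496, 4822 and 4999 to 308, 399 and 317 CPM in WT and from 6642, 6082 and 5960 to 182, 175 and 164 CPM in KO, with an interaction of -1.26 ± 0.15. Col3a1, of type III collagen, fell from 8266, 9069 and 9304 to 229.6, 378 and 186 CPM in WT and from 41654, 39079 and 36100 to 10089, 7166 and 8084 CPM in KO. The KO fall was smaller, so that KO hypoxia overlapped WT normoxia, and the interaction was 2.87 ± 0.25 (edgeR FDR 3.38e-08). Col8a1 went with Col1a2 at -1.37, and Col5a2 and the elastic fibre protein Fbln5 with Col3a1, at 1.46 and 0.84. The summed fibroblast markers given above moved with these genes, and their part in the result was not tested.

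Of 21 matrix proteases and inhibitors, 8 were positive and 3 negative (median 0.26). The aggrecanase Adamts5 fell in WT from 164, 152 and 154 to 25.4, 22.1 and 26.03 CPM and rose in KO from 46.9, 46.1 and 45.4 to 78.1, 53.7 and 60.7 CPM, with an interaction of 3.14 ± 0.14 (edgeR FDR 2.08e-16). Adamts1 likewise fell in WT and rose in KO (2.19), as did the collagen-degrading cathepsin Ctsk (2.62), and Mmp14 fell by more in WT (1.48). Of 28 genes of TGF-beta, BMP and activin signalling, 8 were positive and 6 negative. Id3, Grem1 and Tgfb2 fell by more in WT (1.39, 1.44 and 1.14), the latent TGF-beta binding protein Ltbp1 fell by more in KO (-1.35), and Id1 fell in KO alone (-1.22).

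Inflammatory genes outside the interferon response were mostly positive. Of 23 tested genes for chemokines, cytokines and adhesion, 13 had a positive and 4 a negative interaction, with a median of 0.86, the highest of all lists with at least 10 genes. In WT 12 fell and 7 rose, and in KO 8 fell and 6 rose. Ptgs2 (cyclooxygenase 2) fell in WT from 90.9, 95.7 and 86.7 to 53.3, 51.5 and 50.96 CPM and rose in KO from 3.62, 3.31 and 4.81 to 15.6, 14.95 and 13.96 CPM, though WT stayed above KO, with an interaction of 2.74 ± 0.16 (edgeR FDR 4.98e-14). Cx3cl1 (fractalkine) fell from 126, 124 and 135 to 8.93, 7.104 and 10.2 CPM in WT and from 10.7, 11.2 and 10.2 to 4.65, 6.23 and 4.76 CPM in KO. WT lost most of its higher starting level, and the interaction was 2.78 ± 0.18. The chemokine Cxcl12 fell in WT and rose in KO (1.81), Tnfaip3, which restrains NF-kB, rose by more in KO (1.67), and Nfkbia fell in KO alone. Without WT hypoxia libraries 1 and 2 the counts were 9 positive and 5 negative. Of 21 interferon response genes 4 were positive, among them Irf9, Ifit2 and the peptide transporter Tap1 (0.81, 0.86 and 1.16), and 3 negative, among them Bst2 (-1.34). These counts lay near the shares over all genes tested, 15.7% positive and 14.4% negative. Of 7 macrophage markers tested, 3 were positive, among them Cd14 (1.27), and 0 negative. In hypoxia 3 of them rose and 1 fell in WT, and 4 rose and 1 fell in KO. A fixed set of 7 markers summed to 53.6 to 63.9 CPM in WT normoxia, 20.8 to 24.04 in WT hypoxia, 13.8 to 16.1 in KO normoxia and 10.6 to 13.7 in KO hypoxia. Most of that sum was Cd14, which fell in both lines. Cd68 rose from a mean of 3.09 to 6.45 CPM in WT and from 1.42 to 2.66 CPM in KO, and the mean of Csf1r also rose in both. Cd68 and Csf1r were counted in all 12 libraries, at up to 7.03 and 1.4 CPM, and Ptprc had a mean of 0.846 CPM in WT hypoxia, with a highest library of 2.46, and of 0 in WT normoxia. Tyrobp was at 0 in 11 libraries, Emr1 in 8 and Lyz2 in 7, and these 3 reached at most 0.273 CPM. Whether macrophages were present, and their part in the result, was not tested.

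Growth factor and guidance genes leaned negative. Of 23 ligands and receptors of the IGF, PDGF and VEGF families 10 were negative and 4 positive (median -0.62). Beside Igfbp3, Igf1 fell by more in KO (-1.75) and Pdgfd, at 32.4, 33.7 and 34.3 CPM in KO normoxia and at most 0.652 CPM in WT, fell in KO alone (-3.27). Pdgfa and Figf were positive (1.01 and 2.07). Of 24 guidance and migration genes 9 were negative and 3 positive, and without WT hypoxia libraries 1 and 2 these counts were 9 and 0. The positive count was also 0 without WT hypoxia library 2 alone, and 1 without KO hypoxia library 1. Sema3d, Sema3e and Slit2 rose in WT and fell in KO (-1.76, -1.73 and -2.36), and the semaphorin receptors Nrp1 and Nrp2 were negative too (-1.46 and -1.89). Of 22 immediate early and KLF factors 8 were negative and 5 positive, with 5 negative when WT normoxia library 2 was left out. Jun rose in WT from 13.3, 14.9 and 17.1 to 46.9, 48.9 and 44.05 CPM and fell in KO from 212, 210.2 and 213 to 95.8, 93.02 and 91.1 CPM, with -2.81 ± 0.13. Its partner Junb went the other way, down in WT and up in KO, with 1.23 ± 0.13. Klf4, a factor of smooth muscle phenotypic change, rose in both lines and by less in KO (-0.94). Of the pluripotency genes Tfcp2l1, Klf4 and Myc were the only 3 tested of 14, and Tfcp2l1 also rose by less in KO (-1.80).

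The remaining lists held contractile, lipid and organelle genes and cell type markers, beside 15.7% positive and 14.4% negative over all genes tested. Of 17 contractile genes 4 were positive and 2 negative (median 0.17), and without WT hypoxia library 3 these counts were 4 and 0 with a median of 0.66. Caldesmon (Cald1) fell from 723, 669.8 and 643 to 89.8, 87.4 and 92.4 CPM in WT and from 183, 185 and 184 to 145, 93.4 and 135 CPM in KO (2.35 ± 0.16). Tagln, at 2.12 to 9.69 CPM in all 12 libraries, fell in WT and rose in KO (1.32). Cholesterol synthesis rose in both lines, in 22 (WT) and 23 (KO) of 23 genes, and differed in 5, of which 4 were negative, among them Mvd (-1.21). When single libraries were left out, the negative genes numbered from 2 (without WT normoxia library 3, KO normoxia library 1 or 3, WT hypoxia library 3 or KO hypoxia library 2) to 7 (without WT hypoxia library 2). The positive ones then numbered 0 to 4, and the median was 0.06 without KO hypoxia library 2. Among 19 genes of lipid efflux, uptake and storage, 2 were positive and 6 negative. Abca1, the cholesterol exporter, fell by more in WT (2.15), and Fasn, Hilpda and Plin2 rose by less in KO (-1.56, -0.91 and -0.69). Of 22 autophagy and lysosome genes 7 were positive and 3 negative, with Npc1 at 0.98 and Wipi1 at -0.85. Heat shock genes gave 3 positive and 4 negative of 16, with Hspa4l, which rose in WT alone, at -1.60. The positive count was 1 when any of 6 libraries was left out (WT normoxia 1 or 3, KO normoxia 2 or 3, KO hypoxia 2 or 3). Of 33 oxidative phosphorylation subunits 2 were negative, among them Sdhb (-0.61), and 0 positive by edgeR and by DESeq2, with 1 positive at an unadjusted p under 0.05 and 1 called without WT hypoxia library 3. Of 20 histone demethylase, TET and DNA methyltransferase genes 1, Tet2 (-0.45), was negative and 1, Kdm4c (0.28), positive, a call that was lost in 18 of 25 alternatives, DESeq2 among them. Adventitial fibroblast markers had 5 positive and 4 negative of 13. Of 4 epithelial markers 1 was called negative, the keratin Krt19 (-2.49), which rose in both lines. Of the 4, 2 lay above 0 and 2 below, with a median of 1.32, and DESeq2 and limma voom each called 1 positive. The keratins Krt8 and Krt18 rose in KO, from means of 0.0492 to 2.55 and 0.512 to 6.59 CPM. In WT, Krt8 rose from 0.0483 to 0.256 CPM and Krt18 had a mean of 0 in both groups. Of 7 endothelial markers 0 were called by edgeR, 1 by DESeq2 and 1 (Kdr) had an unadjusted p under 0.05.

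**Figure D4:**
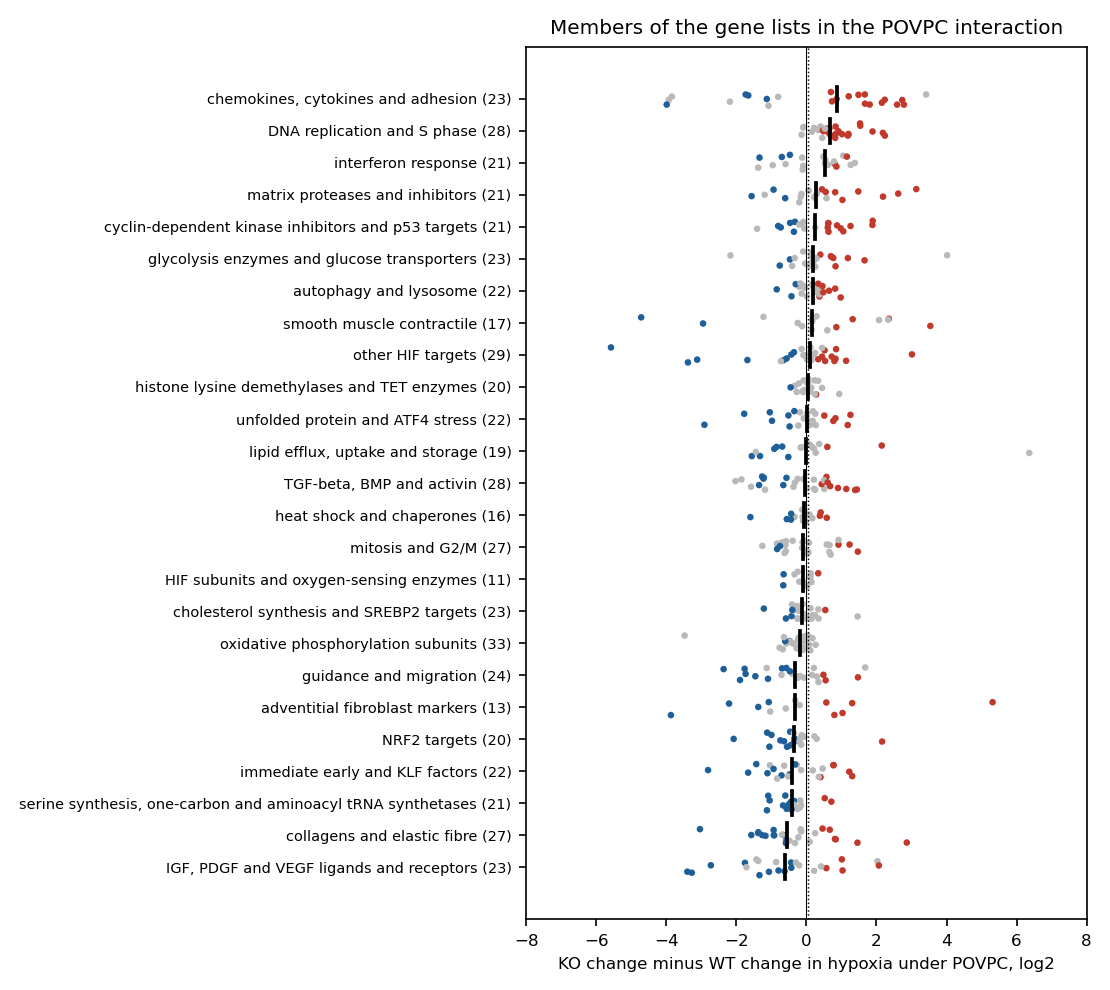
Interaction (KO change minus WT change in hypoxia under POVPC, log2) of the members of 25 gene lists, 1 point a gene, with the number tested after each name; red and blue points are called positive and negative, grey points are not called, bars are list medians and the dotted line is the median of all genes. Chemokines and DNA replication genes have the highest medians, 0.86 and 0.67, and growth factors the lowest, -0.62.

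The same interaction was computed with vehicle in place of POVPC, from 12 other libraries of the 2 lines, and the test of the difference between the media was the three-way interaction (POVPC minus vehicle). Under vehicle 5670 genes (39.1%) were called, 19.2% positive and 19.9% negative, and 2762 genes were called in both media, which is 63.4% of the POVPC calls and 48.7% of the vehicle calls. Of these, 2534 (91.7%) had the same sign. Across all genes the interactions had a Spearman correlation of 0.484, given as a description since genes are not independent replicates and the lines are shared. The three-way test called 2000 genes (13.8%), 1125 (7.76%) higher and 875 (6.04%) lower under POVPC, and 1066 of them were called under POVPC. Of the vehicle libraries, KO hypoxia library 3 was the shallowest, at 11618385 counts. It had 8.07 multimapping alignments per assigned read, against at most 3.88 in the other vehicle libraries. No vehicle library was left out by itself, so its part in the vehicle and three-way results was not tested. All 228 genes that were called in both media with opposite signs were among the 2000, 143 of them positive under POVPC and 85 negative.

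Several lists differed between the media. Of 28 DNA replication genes 23 had a higher interaction under POVPC and 0 a lower one, also at an unadjusted p under 0.05, with a median interaction of -0.64 under vehicle and 0.67 under POVPC. Of 27 mitosis genes 20 were higher and 0 lower, likewise, with medians of -2.38 under vehicle and -0.09 under POVPC. Mki67 shows the pattern: under vehicle WT held 11.01 ± 0.501 CPM in normoxia and 7.497 ± 0.314 CPM in hypoxia (mean ± SD, n = 3), and KO 17.5 ± 2.67 and 1.3 ± 0.551 CPM. With POVPC, WT stood higher in normoxia, as given above, and fell steeply in hypoxia, as KO did in both media. The three-way difference was 2.50 ± 0.44 (edgeR FDR 0.000163), and that of Mcm5 was 2.56 ± 0.23. Cholesterol synthesis genes (21 of 23 higher; medians -1.45 and -0.11), NRF2 targets (13 of 20 higher; -1.23 and -0.35) and glycolysis genes (13 higher and 1 lower of 23; -0.65 and 0.20) were also higher under POVPC. For Slc7a11 the interaction was -3.48 under vehicle and -1.05 under POVPC. Bhlhe40 turned from -2.69 to 1.13, a three-way difference of 3.82 ± 0.24. Of 21 serine and tRNA synthetase genes 4 were higher and 1 lower, with medians of -0.58 and -0.42. Without WT POVPC hypoxia libraries 1 and 2 the median three-way difference went from 1.67 to 1.65 for replication and from 1.93 to 1.85 for mitosis genes. It went from 1.21 to 1.13 for cholesterol synthesis, from 0.86 to 0.68 for NRF2 targets and from 0.72 to 0.68 for glycolysis genes.

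**Figure D5:**
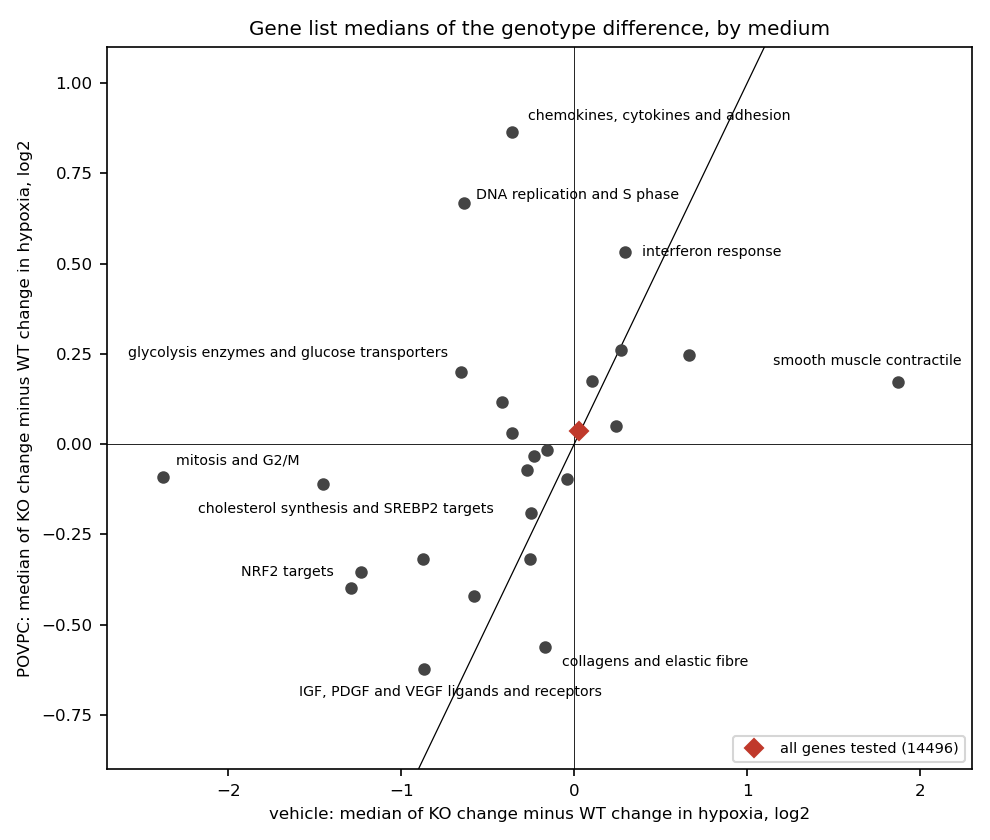
Median interaction of 25 gene lists under vehicle (horizontal axis) and under POVPC (vertical axis), log2; the axes differ in scale, the line marks equal medians and the diamond all 14496 genes. The DNA replication and glycolysis lists lie at negative medians under vehicle and positive ones under POVPC, and the mitosis and cholesterol lists lie near 0 under POVPC.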

How the data were processed

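Bulk RNA-seq of cultured mouse aortic smooth muscle cells was used from 24 libraries in 8 groups of 3, of which the 12 POVPC libraries carry the comparison. The deposited table gives counts per gene, made by the authors with featureCounts 1.4.4 on mm9 exons with no strand and with mates counted separately, per the file headers. STAR and DESeq2 are named in the submitters' processing notes. Genes passing edgeR's expression filter (minimum count 10, minimum total 15) were tested, 14496 of 23284. The 8 groups were fitted in 1 model with edgeR 4.0.16 (R 4.3.3; TMM scaling, robust quasi-likelihood F test, 2-sided, Benjamini-Hochberg FDR 0.05 over all genes tested). CPM scale counts to a common total of the TMM-adjusted library, and values after ± are SE for log2 differences and SD for CPM. CPM compares libraries for 1 gene, not genes of unequal length. In simulated counts on 14496 genes the interaction test recovered 40.3% of 1.5-fold, 68.7% of 2-fold and 89.4% of 4-fold changes, and called 5 of 14159 unchanged genes. The simulation changed 200 genes, far fewer than the 4354 called here, so its recovery rates may not carry over.

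Named genes had a mean of at least 1 CPM and were the 15 largest interactions in each direction, the 5 smallest p in each class and each list, and the 5 largest three-way differences in each direction. Some of these genes are not reported here. Bounds use a floor of 3 counts over a group. The members, the 29 gene lists and the tests were chosen with earlier results of these data known. Alternatives were DESeq2 1.42.0, limma 3.58.1 voom, other scalings and filters, a replicate block and the omission of POVPC libraries or of the vehicle libraries together. Their use on counts of list members was added after seeing the data. Promoter sequences came from a RefSeq table on GRCm38.p6 and were matched by symbol for 10035 of the 14496 genes, and no coordinates of that build were combined with mm9.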

Additional observations from a re-analysis of the deposited data

Results flagged for a closer look

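The response to hypoxia under POVPC differed between the lines for 4354 genes, and this difference itself differed between POVPC and vehicle for 2000 genes by the three-way test. Of the genes called in both media, 228 had opposite signs. Below, group means are in CPM with 3 libraries each, and three-way differences are POVPC minus vehicle (log2, edgeR).

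The Ly6 surface protein gene Ly6a had a three-way difference of 5.99. Under vehicle WT rose from 9.22 ± 0.47 to 56.0 ± 3.9 CPM and KO fell from 275 ± 20 to 53.5 ± 3.8 CPM, while under POVPC both lines fell, from 400 ± 13 to 35.2 ± 9.7 CPM in WT and from 288 ± 17 to 52.5 ± 4.4 CPM in KO. The WT normoxia level was thus the group that stood apart between the media. The related gene Ly6c1 followed with 5.46, from 1.08 to 5.98 CPM in WT under vehicle and from 33.6 to 4.55 CPM under POVPC. Wif1, a secreted WNT inhibitor, had 6.04, with WT normoxia at 0.309 CPM under vehicle and 8.36 CPM under POVPC. Zbp1, a sensor of nucleic acids, had 5.63, with WT normoxia at 0.145 and 2.54 CPM. Psca had 5.90, but WT was at or below 0.54 CPM in all 4 of its groups and at 0 in WT normoxia under vehicle, so the fitted value depends on counts near 0.

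In the other direction, elastin (Eln) had -8.57. WT normoxia stood at 87.3 CPM under vehicle and 26.8 CPM under POVPC, and hypoxia means lay at or below 1.62 CPM in both lines and media, so its size rests on few counts. The same holds for Itga8 (-4.82), whose WT normoxia means were 30.7 and 3.06 CPM, and for Nkd1 (-4.81), with 14.6 and 4.41 CPM. Rorb (-6.11) stood in WT at 17.1 and 5.84 CPM under vehicle and at 3.96 and 6.98 CPM under POVPC, while KO stayed at or below 0.351 CPM. Tox (-6.68) stayed at or below 0.160 CPM in KO, and in WT it stood at 3.98 and 1.61 CPM under vehicle and 2.85 and 1.37 CPM under POVPC. It thus fell in WT in both media. With KO near 0 CPM, the size of the Rorb and Tox values depends on few counts. The POVPC interactions of Eln, Itga8, Ly6c1, Nkd1, Rorb, Tox and Zbp1 gained or lost their calls when single libraries were left out.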

How the results depend on the processing

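The number of genes called in the interaction stayed within 1.5 times 4354 under the other scalings, tools and filters, from 3532 with library size alone to 4812 with limma voom (4728 with DESeq2), and no main call changed sign under these. A 2-fold minimum left 1478 genes (699 higher, 779 lower), 933 in the three-way test, 4250 in the KO response and 3966 in the WT response. Leaving out 1 POVPC library at a time gave 3846 to 4406 called, 1661 to 2410 higher and 1886 to 2299 lower, with 1727 to 2430 in the three-way test, 9329 to 10055 in KO and 8978 to 9654 in WT. Of the main calls, 1 changed sign without WT hypoxia library 2 and 2 without WT hypoxia library 3. Without WT hypoxia libraries 1 and 2, where the lone sample is assumed to vary like the other groups, 3367 were called and 2 main calls changed sign. Same-numbered libraries correlated over 0.1 in 7 of 18 pairs, among them all 3 pairs of KO normoxia and KO hypoxia (0.377, 0.119 and 0.160), so not every pair met the criterion for pairing (in 14 of 36 comparisons of a library with another group it correlated best with its own number), and the replicate block gave 4289 called, 4219 of them main calls. Of 5028 values of 202 named genes under the alternatives, 4756 kept their direction and side of the threshold, 240 lost and 31 gained a call, and 1 reversed: Itga8, at -2.95, ranged from -3.43 to 2.38 when single libraries were left out, the last without WT hypoxia library 3, and was -3.82 without WT hypoxia libraries 1 and 2; the cause was not tested. Depth limits genes near 0 counts, where fitted differences depend on the prior count.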
